A study of Mus musculus with 4 samples.

Results

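The genes described here are 6 of the 13772 in the deposited tables, chosen by name as the main binding proteins of AU-rich elements: Zfp36, Zfp36l1, Zfp36l2, Khsrp, Hnrnpd and Elavl1. All 6 were found. They were compared as 5 decay-promoting genes against the stabilising Elavl1, across 4 single-cell RNA libraries and between cells low and high in Myog, the transcription factor of differentiating muscle cells. The title of the series names RNA decay, substrate stiffness and the fate of aged muscle stem cells.

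The cells were muscle stem cells of wild-type C57BL/6 mice, kept for 7 days in DMEM with 10% fetal bovine serum on polydimethylsiloxane, a silicone rubber. There was 1 library each of young cells on soft (12 kPa), young cells on stiff (29 kPa), aged cells on soft (12 kPa) and aged cells on stiff (29 kPa) substrate. The sources used here do not give the age of the mice, their number or any pooling, and the 4 libraries carry no error between animals. Values over the libraries follow the order young soft, young stiff, aged soft, aged stiff. All cells had been through a week of culture and were lifted with trypsin, so none represents a resting stem cell in the tissue.

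AU-rich elements are stretches of A and U in the 3′ untranslated region (UTR) of many short-lived messages. The zinc finger proteins made from Zfp36 (tristetraprolin), Zfp36l1 and Zfp36l2 bind such a stretch and bring the CCR4-NOT deadenylase to the message, which then loses its poly(A) tail. Khsrp encodes a KH-domain protein that also recruits decay enzymes, and Hnrnpd encodes AUF1, which promotes decay of many of its targets but not all, while Elavl1 encodes HuR, which protects bound messages. In muscle, Zfp36 is known for turnover of Myod1 messages in resting stem cells, Khsrp for turnover of Myog messages in dividing myoblasts, Hnrnpd for turnover of Mmp9, and Elavl1 for holding Myod1, Myog and Cdkn1a messages during differentiation.

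The core element bound by the Zfp36 family is the nonamer TTATTTATT, in DNA letters. Of the 6 genes, 4 carry it in their own 3′ UTR in the GRCm38 reference with GENCODE M21 transcripts, and 1 site of each is shown because these genes are themselves possible targets of the family. The nonamer is in capitals, and each line runs 5′ to 3′ along the message.
Zfp36, chr7:28376961-28376969, minus strand: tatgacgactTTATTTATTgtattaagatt
Zfp36l1, chr12:80108177-80108185, minus strand: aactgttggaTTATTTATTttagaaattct
Zfp36l2, chr17:84184924-84184932, minus strand: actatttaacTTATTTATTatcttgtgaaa
Elavl1, chr8:4285798-4285806, minus strand: gtcatgaaaaTTATTTATTtatttatttat
Coordinates are those of the capitals. The nonamer starts at base 589 of 774 in the UTR of Zfp36, 1404 of 1835 in Zfp36l1 and 821 of 1822 in Zfp36l2, 1 copy each. Elavl1 holds 8 copies, counted with overlaps, which start between bases 3794 and 3840 of a UTR of 4218. Khsrp, with a UTR of 1642 bases, and Hnrnpd, with 5429, hold none of these letters. Over 12933 genes of the tables with a UTR in the reference, 7.66% held the nonamer on the message strand, and 1.68% held it more than 1 time. Long UTRs hold any motif more often, and a match of letters is not a measured binding site.

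Among messages named above as muscle targets, the nonamer was present in Mmp9 and, for comparison, in Notch1, another AU-rich message.
Mmp9, chr2:164955304-164955312, plus strand: tccagcccttTTATTTATTatgtatgaggt
Notch1, chr2:26459172-26459180, minus strand: taaatgctgtTTATTTATTgattgcttctt
Myod1 held only the shorter TATTTAT, 1 time, and Myog and Cdkn1a held neither form.

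Each library held 1333 to 1738 cells after filtering, with a median of 28612 to 37081 unique molecular identifiers (UMIs, 1 per captured message) per cell, and the libraries shared at most 1 cell barcode. The deposited values were log2(CPM + 1), where CPM is a gene's UMIs in a cell scaled to a common total. The 8 fixed myogenic markers were all above 20 CPM in every library and summed to 14475 to 23804 CPM. Fibro-adipogenic markers summed to 37.2 to 65.3 CPM, endothelial markers to at most 0.17, immune markers to at most 8.52 and glial markers to at most 2.48. Smooth muscle markers summed to 1481 to 1769 CPM, nearly all from Acta2, an actin that cultured myoblasts also make.

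Libraries of this kind tag the 3′ end of each message, so that UMIs can be ranked between genes without a length term. Hnrnpd was the most abundant of the 6 in every library, at 199, 179.8, 138 and 126 mean CPM. Elavl1 came next at 107, 98.3, 76.2 and 71.9 CPM, below Hnrnpd in each library. Both were lower in each aged library than in each young one. How many of all genes were placed in this way was not counted. Of genes at 20 CPM or more in either library, 64.7% were lower in aged cells on soft and 64.4% on stiff substrate.

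The Zfp36 family differed among itself. Zfp36l2 was at 80.8, 71.4, 41.8 and 29.8 CPM, and Zfp36l1 at 55.3, 48.8, 54.6 and 43.4 CPM. Zfp36l2 was therefore the leading family member in the young libraries and Zfp36l1 in the aged ones, and the ranges of the pair over the 4 libraries overlap. Khsrp was at 29.9, 27.6, 19.8 and 17.4 CPM, and Zfp36, the serum-inducible founder of the family, was lowest at 7.68, 8.29, 9.38 and 8.83 CPM. The range of Khsrp lies below that of Zfp36l1 and above that of Zfp36, without overlap, while the lowest Elavl1 level falls within the range of Zfp36l2.

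Cells were then divided at a Myog level of 7 on the log2(CPM + 1) scale, which is 127 CPM. Cells under 7 numbered 526, 558, 271 and 263 over the libraries, or 38.7%, 37.7%, 20.3% and 15.1% of each library. Only 31 to 39 cells per library lay within 0.5 of the cut. The classes also differ in what else they hold: Pax7, the stem cell factor, averaged 151 to 160.3 CPM under the cut and 9.17 to 18.5 CPM above it, and median UMIs per cell were 23301 to 30910 under it and 31270 to 38922 above it.

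**Figure D1:**
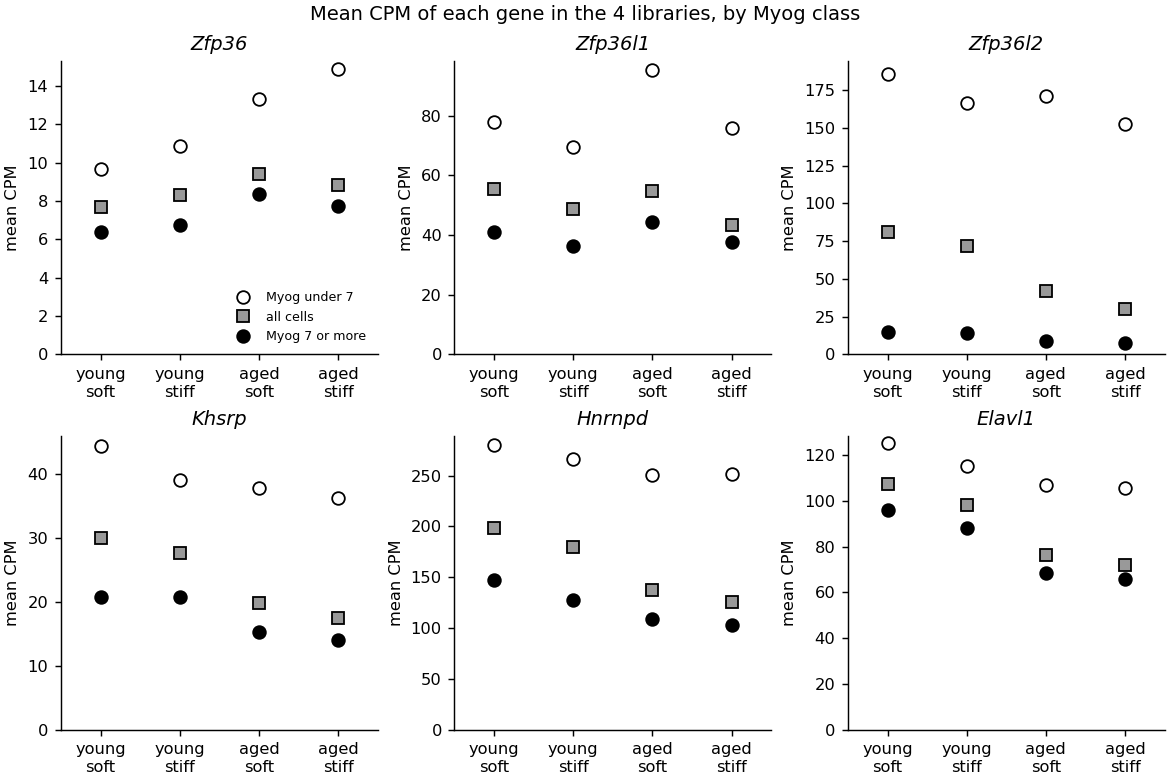
Mean CPM (vertical axes, from 0, a scale of its own in each panel) of the 6 genes in each library, in cells with Myog under 7, in all cells and in cells with Myog of 7 or more. The cells under 7 lie above the cells of 7 or more in all 4 libraries for each gene, and taken as a ratio the gap is widest for Zfp36l2.

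Zfp36l2 separated the classes most. In cells under the Myog cut it was at 185, 166, 171 and 153 CPM, and in cells at or above the cut it was at 14.9, 14.0, 8.74 and 7.89 CPM. Every low-Myog value was above every high-Myog value, which also held for each other gene described here. How many of all genes were apart in this way was not counted. Between the classes 57.4% of the tested genes fell and 26.8% rose. On the log2(CPM + 5) scale Zfp36l2 fell by 3.43 ± 0.25 (SD, n = 4 libraries), a 10.8-fold lower level, with a limma adjusted p of 1.47e-06 over 7177 genes. By size of the lowering it ranked 11 of those 7177 genes. Zfp36l2 entered the test only through the low-Myog class, where it is high, so its rank and p are not independent support for the lowering. The levels left in high-Myog cells are close to those of Pax7 there, and the part of free RNA or mixed droplets in these residual levels was not tested.

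The share of cells with at least 1 Zfp36l2 UMI was 89.9%, 86.0%, 84.1% and 79.1% under the cut and 26.1%, 19.4%, 13.7% and 15.6% above it. After thinning every cell to 10000 UMIs, which leaves out 2 to 11 cells per library, the shares were 72.4%, 68.5%, 68.8% and 61.8% against 10.8%, 9.07%, 5.13% and 6.04%. The thinned shares keep the same separation although the high-Myog cells are the deeper ones. No cell type in these libraries is known to lack the gene and could serve as its background.

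Zfp36l1 was lower in high-Myog cells by less. It was at 78.0, 69.5, 95.3 and 76.0 CPM under the cut and at 41.0, 36.2, 44.3 and 37.6 CPM above it. It fell by 0.91 ± 0.08 (SD, n = 4 libraries) on the log2 scale, with a limma adjusted p of 9.75e-06.

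Zfp36 was at 9.69, 10.9, 13.3 and 14.9 CPM under the cut and at 6.41, 6.74, 8.38 and 7.76 CPM above it. It never reached the 20 CPM needed to enter the test, so its log2 difference of -0.47 ± 0.12 (SD, n = 4 libraries) stands as a description, lower in 4 of 4 libraries. With no filter on low values the limma adjusted p was 0.0016.

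The other decay-promoting genes, Khsrp and Hnrnpd, were both lower in high-Myog cells. Khsrp was at 44.4, 39.1, 37.8 and 36.2 CPM under the cut and at 20.7, 20.7, 15.2 and 14.0 CPM above it, and fell by 0.98 ± 0.15 (SD, n = 4 libraries; limma adjusted p = 2.90e-05). Hnrnpd was at 279.9, 267, 250.4 and 252 CPM under the cut and at 148, 127, 109 and 103 CPM above it, and fell by 1.09 ± 0.15 (SD, n = 4 libraries; limma adjusted p = 1.45e-05). Each was lower in 4 of 4 libraries.

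Elavl1, the stabiliser, had the smallest lowering of the tested genes. It was at 125, 115, 107 and 106 CPM under the cut and at 95.8, 88.1, 68.3 and 65.9 CPM above it, and fell by 0.50 ± 0.15 (SD, n = 4 libraries; limma adjusted p = 4.88e-04). Within the young libraries the difference was -0.37 in each, against -0.61 and -0.64 in the aged ones.

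A gene entered the test with 20 CPM or more in at least 1 of the 8 library-by-class profiles, and Zfp36l2 did so only through the low-Myog class. All 5 tested members were lower in high-Myog cells, in a contrast where 57.4% of the 7177 genes tested fell and 26.8% rose, so that the count of members is not far from what most genes did. The median over all tested genes was -0.28, and Elavl1, at -0.50, is the nearest of the tested members to it. With median-of-ratios scaling the median moved to -0.09 and the split of calls to 2539 higher and 3266 lower, from 1926 and 4117, and the 5 members stayed lower, with Zfp36l2 at -3.28 and Elavl1 at -0.32. Each library gives both classes, and since nothing says that the libraries come from separate animals, the p-values measure the spread between these libraries only.

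The lowering was larger in aged than in young libraries for 3 of the 5 tested members in an interaction test added after the data had been seen. That test takes the soft and stiff libraries of each age as replicates, so its p-values carry no error between animals. The aged minus young difference was -0.43 (SE 0.080) for Zfp36l2, with a limma adjusted p of 0.0071. It was -0.26 (SE 0.066, limma adjusted p = 0.027) for Elavl1 and -0.24 (SE 0.070, limma adjusted p = 0.043) for Hnrnpd. For Khsrp it was -0.24 (limma adjusted p = 0.106) and for Zfp36l1 -0.12 (limma adjusted p = 0.275), which do not pass. The same test called 1645 of 7177 genes. With median-of-ratios scaling the limma adjusted p was 0.0125 for Zfp36l2 but 0.060 for Elavl1 and 0.083 for Hnrnpd, and without cycling cells under the cut Elavl1 was at 0.112. Between stiff and soft substrate the interaction passed for 0 genes in limma, with 20 at an unadjusted p under 0.05, and the members' differences were -0.11 to 0.08.

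Finer steps of Myog showed that the genes do not move alike through differentiation. Zfp36l2 in young soft cells was at 189 CPM where Myog was not detected, 180.0 in cells above 0 and under 7, 63.6 from 7 to under 9, 12.2 from 9 to under 11 and 6.77 at 11 or more. In aged stiff cells the same 5 steps gave 176, 118, 10.4, 9.32 and 4.60 CPM. Its level was lower at each step than at the step before in all 4 libraries. At the step from 7 to under 9 the young libraries were at 63.6 and 56 CPM and the aged ones at 27.1 and 10.4 CPM.

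Elavl1 had a trough instead. In young soft cells it was at 122, 131, 100.5, 69.8 and 116 CPM over the same steps, and in aged stiff cells at 108, 102, 42.5, 54.4 and 93.5 CPM. Its level in cells at 11 or more was above that at 9 to under 11 in 4 of 4 libraries, by 0.52 to 0.73 on the log2 scale, and came within 0.06 to 0.21 of the level in cells without Myog.

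Zfp36l1, Khsrp and Hnrnpd shared the higher level at the last step. From 9 to under 11 up to 11 or more, Zfp36l1 was higher by 0.47 to 0.95, Khsrp by 0.32 to 0.41 and Hnrnpd by 0.31 to 0.75 on the log2 scale, in 4 of 4 libraries each. Zfp36l2 went the other way, with differences of -0.58 to -0.25, and Zfp36 showed -0.18 to 0.02. Relative to cells without Myog, the last step was -4.24 to -3.76 for Zfp36l2, -0.90 to -0.72 for Hnrnpd, -0.87 to -0.60 for Khsrp, -0.67 to -0.44 for Zfp36l1 and -0.88 to -0.29 for Zfp36. These steps are a description without a test, and how many of all genes were higher at the last step was not counted.

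**Figure D2:**
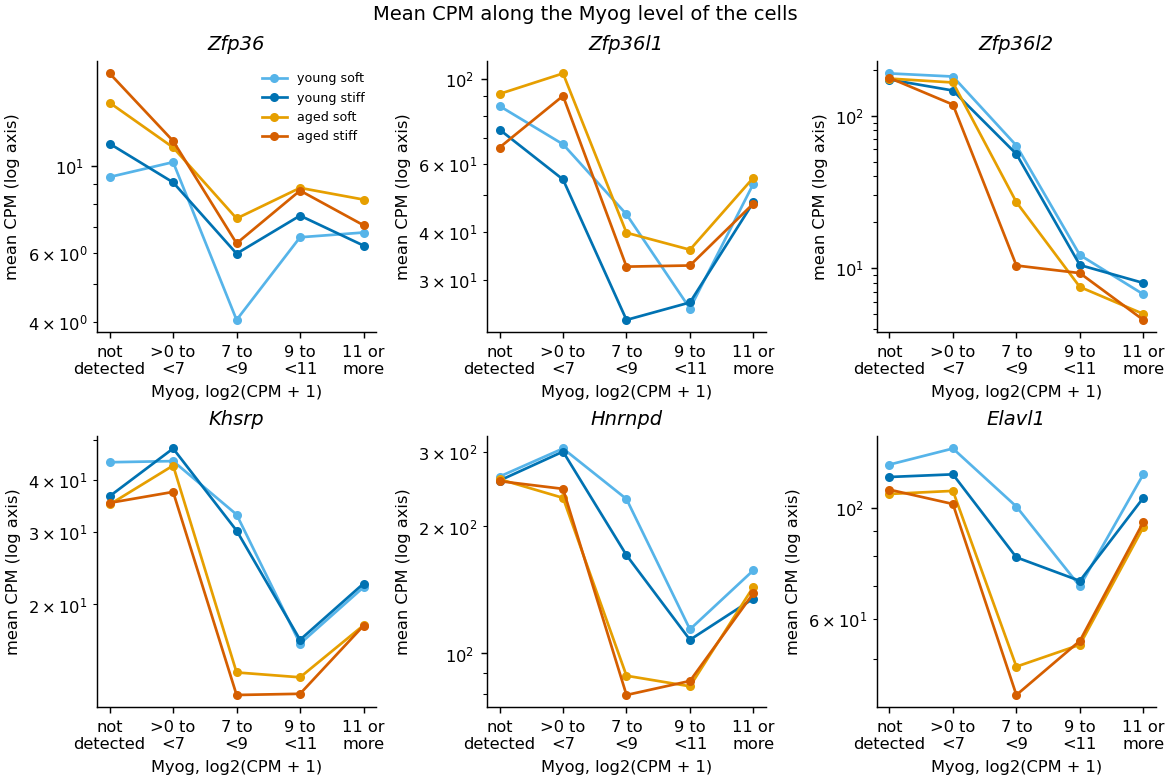
Mean CPM (log axes) of each gene in cells grouped by their own Myog level, from not detected to 11 or more on the log2(CPM + 1) scale, with 1 line per library. Zfp36l2 drops through every step in young soft cells from 189 to 6.77 CPM, while Elavl1 has a trough at Myog of 7 to 11 and is higher again at 11 or more in all 4 libraries.

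The sum of the 5 decay-promoting genes was set against Elavl1 in each library. Over all cells this ratio of CPM was 3.47, 3.42, 3.45 and 3.13. Under the Myog cut it was 4.76, 4.79, 5.31 and 5.03, and at or above it 2.41, 2.33, 2.71 and 2.59. High-Myog cells therefore had less of the decay-promoting messages per Elavl1 message in all 4 libraries, by -0.99, -1.04, -0.97 and -0.96 on the log2 scale.

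The summed Zfp36 family moved further, with Zfp36l2 as the largest part. On the log2 scale the high minus low difference was -3.43 for Zfp36l2, -0.91 for Zfp36l1 and -0.47 for Zfp36, beside -0.50 for Elavl1. The family sum over Elavl1 was 2.18, 2.14, 2.62 and 2.30 under the cut and 0.65, 0.65, 0.90 and 0.81 above it. Family messages thus outnumbered Elavl1 messages in the first class and were fewer in the second. The log2 differences of this ratio were -1.74, -1.73, -1.54 and -1.51. The family made up 44.6% to 49.3% of the decay-promoting sum under the cut and 27.0% to 33.1% above it, the rest being Hnrnpd and Khsrp.

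**Figure D3:**
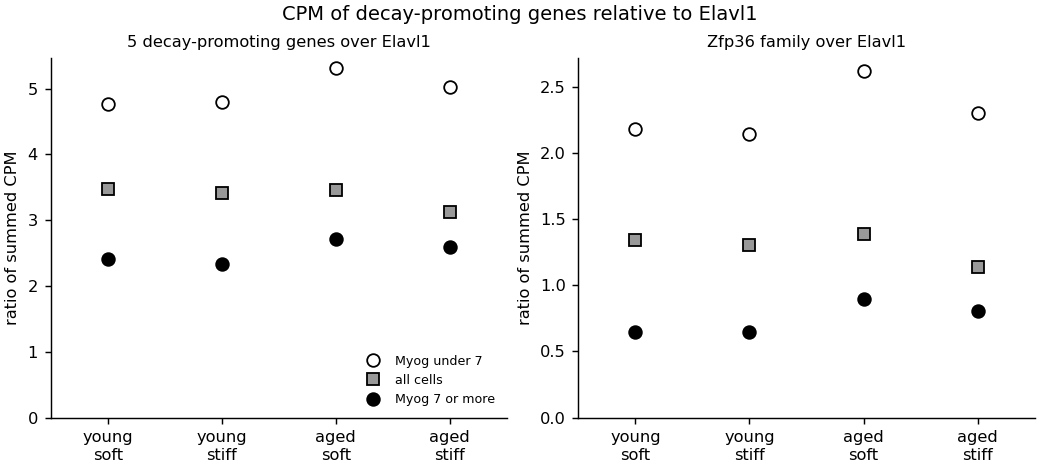
Ratio of summed CPM to Elavl1 CPM (vertical axes, from 0) in each library for the 5 decay-promoting genes and for the Zfp36 family alone, by Myog class. In both panels cells under 7 lie above cells of 7 or more. Within each class each aged library lies above the young library on the same substrate, a description without an interval.

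Between aged and young cells, Zfp36l2 again differed most among the 6 genes. With 1 library per group there is no test, and differences are log2 ratios of mean CPM + 5. Zfp36l2 differed by -0.87 on soft and -1.14 on stiff substrate, which are ratios of 0.55 and 0.46. The ratio of summed UMIs scaled to depth, in which deeper cells weigh more, was 0.42 (0.39 to 0.44) and 0.33 (0.31 to 0.35). Its exact 95% intervals cover counting error only and do not hold for the ratios of mean CPM + 5.

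Hnrnpd differed by -0.52 on soft and -0.50 on stiff substrate, Khsrp by -0.49 and -0.54, and Elavl1 by -0.47 and -0.43. Zfp36l1 was at -0.02 and -0.15, and at 0.08 on soft with median-of-ratios scaling, while Zfp36 was at 0.18 and 0.06. Zfp36l2, Hnrnpd, Khsrp and Elavl1 were lower by 0.32 or more, the log2 size used as a call, on each substrate. Those are 4 of 5 measured members, against 28.1% of all measured genes lower by as much on soft and 29.5% on stiff substrate, and 0 members were called higher, against 9.87% and 11.1%. The median of all genes was -0.12 on soft and -0.13 on stiff.

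The aged libraries held more high-Myog cells, 79.7% and 84.9% against 61.3% and 62.3%, and fewer cycling cells under the Myog cut, 5.18% and 3.22% of all cells against 16.5% and 15.6%. Within the classes the differences were smaller for Zfp36l2, Hnrnpd and Khsrp. In cells under the Myog cut 0 of 5 measured members were called, against a background of 16.8% lower and 9.94% higher on soft and 15.2% lower and 10.1% higher on stiff. There Zfp36l2 was at -0.11 and -0.12, Hnrnpd at -0.16 and -0.08, Khsrp at -0.20 and -0.10, and Elavl1 at -0.22 and -0.12. Zfp36l1 was at 0.27 and 0.12 and Zfp36 at 0.32 and 0.33, of opposite sign in the same class. The UMI ratio of Zfp36 was 1.26 (0.94 to 1.66) on soft, which spans 1, and 1.38 (1.05 to 1.79) on stiff. Zfp36l1 in non-cycling cells of this class was at 92.6 CPM young and 104 aged on soft, and 82.1 and 81.8 on stiff. In cycling cells it was at 58.5 and 68.6 on soft, and 51.6 and 54.7 on stiff. The part of the cycling share in these differences was not tested.

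In high-Myog cells the differences were larger than in low-Myog cells for 4 of the 6 genes. Elavl1 was at -0.46 on soft and -0.39 on stiff, Khsrp at -0.35 and -0.43 and Hnrnpd at -0.42 and -0.29. Of 4 measured members, 3 were called lower on soft and 2 on stiff, against 21.3% and 18.4% of all genes, and 0 were called higher, against 7.43% and 7.37%. Zfp36l2, under 20 CPM in this class and so not counted, was at -0.53 and -0.56. Top2a, a proliferation gene, was at 136 and 143 CPM in young and 25.5 and 39.6 CPM in aged cells of this class, and Pax7 at 18.5 and 14.6 against 11.5 and 9.17. Their part in these differences was not tested.

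The ratio of decay-promoting genes to Elavl1 differed between all cells and the classes. Over all cells the aged minus young log2 difference was -0.01 on soft and -0.13 on stiff, with 95% counting half-widths of 0.071 and 0.069, so that the value on soft has no clear sign. Within the low-Myog class it was 0.16 and 0.07, and within the high-Myog class 0.17 and 0.15. The half-widths hold for all cells only. Each class holds fewer UMIs, so its half-widths are wider, and they were not computed. For the Zfp36 family over Elavl1 the corresponding values were 0.05 and -0.20 over all cells, 0.27 and 0.11 in the low class and 0.47 and 0.32 in the high class.

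**Figure D4:**
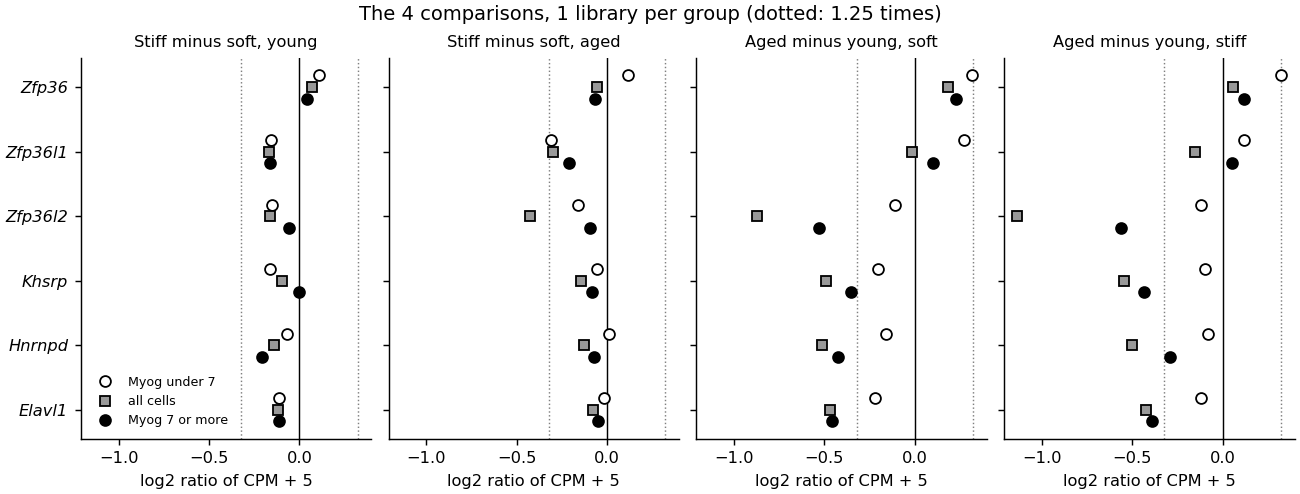
Log2 ratios of mean CPM + 5 (horizontal axes) for the 4 comparisons with 1 library per group, over all cells and within each Myog class, with dotted lines at the size used as a call. Zfp36l2 over all cells lies at -0.87 and -1.14 for aged against young and near -0.11 and -0.12 in cells under the Myog cut.

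Between 29 and 12 kPa the differences were small. In young cells 0 of 5 measured members were called, where 0.182% of genes were higher and 0.597% lower by as much. The 5 were at -0.17 to -0.10, all slightly lower on the stiff substrate, against a median of -0.03 over all genes, and Zfp36 was at 0.07. Within the young classes 0 of 5 members under the Myog cut and 0 of 4 above it were called, against 1.23% and 0.873% of genes lower and 0.268% and 0.249% higher.

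In aged cells 1 of 4 measured members was called, Zfp36l2 at -0.43, against 1.77% of genes lower and 0.432% higher. Its ratio of summed UMIs was 0.71 (0.66 to 0.76). Within the classes Zfp36l2 was at -0.16 under the cut and -0.09 above it, and the aged stiff library held 15.1% low-Myog cells against 20.3% on soft. In the classes 0 of 5 and 0 of 3 measured members were called, against 2.34% and 0.302% of genes lower and 2.76% and 0.246% higher. Zfp36l1 was next at -0.30, and at -0.31 and -0.21 within the classes. Hnrnpd was at -0.13, Elavl1 at -0.08 and Zfp36 at -0.06, and Khsrp, at -0.15, was just under 20 CPM in both libraries. Since the aged soft library serves in 2 of the comparisons, as do the other 3 libraries, the values are set side by side and no overlap is counted.

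Under the Myog cut the genes also differed between cycling cells, taken as Top2a of 7 or more on the log2(CPM + 1) scale, and the rest. Cycling cells numbered 225, 230, 69 and 56 over the libraries. Hnrnpd was at 374, 353, 363 and 401 CPM in cycling and 209.5, 206, 212 and 212 CPM in non-cycling cells, which is 0.76 to 0.91 higher on the log2 scale. Khsrp was higher in cycling cells by 0.38 to 0.57 and Elavl1 by 0.06 to 0.49, in 4 of 4 libraries each.

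Zfp36l1 was the opposite. It was at 58.5, 51.6, 68.6 and 54.7 CPM in cycling and 92.6, 82.1, 104 and 81.8 CPM in non-cycling cells, or -0.62 to -0.54 on the log2 scale. Zfp36 was lower in cycling cells by -0.84 to -0.26, and Zfp36l2 was mixed, from -0.01 to 0.38. No test was run on this split. Leaving the cycling cells out kept all 5 tested members lower in high-Myog cells.

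Zfp36 belongs to the genes that serum switches on within minutes, as does Fos, which encodes a subunit of the AP-1 transcription factor. Cells were divided by whether they held a Fos UMI, a split added after the data had been seen. Under the Myog cut Zfp36 was at 14.1, 12.6, 17.7 and 16.9 CPM with Fos and 6.44, 9.24, 8.46 and 11.7 CPM without it. It was higher with Fos in each library and class, by 0.31 to 0.75 on the log2 scale under the cut and 0.27 to 0.42 above it. Zfp36l2 under the cut was higher with Fos by 0.21 to 0.54, Khsrp by 0.01 to 0.29 and Hnrnpd by 0.03 to 0.24. Zfp36l1 there differed by -0.12 to 0.34 and Elavl1 by -0.13 to 0.00. Cells with Fos had somewhat more UMIs, with medians under the cut of 31658, 24635, 23962 and 24747 against 30486, 22867, 22026 and 23779, and the part of depth was not tested.

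Over single cells the genes were only weakly related. Spearman correlations between pairs of members were taken on the thinned cells. They ran from -0.14 to 0.24 over 120 pairs of genes, libraries and classes, with a median of 0.04. After thinning the members held 0.066 to 2.84 UMIs per cell in the classes, and at this depth such values are not a finding. Over the 20 library-by-Myog-bin profiles the pairs were closer, with a Pearson correlation of 0.97 for Khsrp and Hnrnpd and 0.35 for Zfp36 and Elavl1. These profiles share libraries and Myog, so the correlations are descriptions.

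Among 7613 genes over the same 20 profiles, the patterns most like Zfp36l2 were those of Tpbg, Eva1b and Slc43a3, each at a Pearson correlation of 0.99. Those most like Hnrnpd were Scaf11, Hnrnpr and Rbbp7 (0.99 each), and those most like Khsrp were Hnrnpu (0.99), the deadenylase gene Cnot6 (0.98) and Slf2 (0.98). For Elavl1 they were Dnaja1, Nop58 and Ssb (0.98 each). Zfp36l1 was nearest to the ribosomal protein genes Rpl10 (0.94) and Rpl11 (0.93) and to Serinc3 (0.94). Zfp36 was nearest to Furin (0.90), Fbxo6 (0.89) and Sfrp4 (0.88).

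Other AU-rich element binders split between the directions. Of 31 listed, 27 were in the tables and 25 were tested between the Myog classes, where 15 fell and 5 rose, with a median of -0.24 beside -0.28 for all genes, of which 57.4% fell and 26.8% rose. Rbm38, which encodes a binder known to act on Cdkn1a messages, was at 3.10 to 5.30 CPM under the cut and 32.7 to 37.3 CPM above it, and entered the test only through the class where it is high. Fxr1, a relative of the fragile X protein with a known role in muscle, rose by 1.06. Hnrnpa1 and Hnrnpa0 fell by 1.16 and 1.12, close to Hnrnpd. Aged against young over all cells, 8 of 25 were lower on soft and 9 of 25 on stiff substrate. These shares are near the 28.1% and 29.5% over all genes. Fubp1 led at -0.82 and -0.77, with Hnrnpc at -0.63 and -0.61 and Hnrnpab at -0.61 and -0.57. The part of the Myog make-up was not tested.

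Among 17 listed kinases and other regulators of the members, 11 were tested, of which 6 fell and 1 rose, with a median of -0.18. The share that fell is near the 57.4% over all genes, whose median was -0.28. Akt2, a kinase of the insulin pathway, rose by 1.46, and Cdk1, the mitotic kinase, fell by 2.43. Ywhab, a 14-3-3 protein gene, fell by 0.80, Carm1, a methyltransferase gene, by 0.36 and Ywhaz by 0.31. The 14-3-3 proteins are known to hold phosphorylated Zfp36 away from decay.

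The enzymes through which the Zfp36 family acts were listed as 22 deadenylation and decapping partners. Of these 17 were tested, 11 fell and 1 rose, with a median of -0.55 beside -0.28 for all genes, where 57.4% fell. Xrn1, the 5′ exonuclease, fell by 1.54, Cnot6 by 1.32, Pabpc1, the poly(A) binding protein gene, by 1.28, Pan3 by 1.01 and Cnot3 by 0.87. Xrn1 and Pan3 entered the test only through the low-Myog class, where they are high. Exosc2 was at -0.20 (limma adjusted p = 0.177). Aged against young over all cells, 8 of 17 were lower on soft and 8 of 16 on stiff. This stands beside 28.1% and 29.5% of all genes. Pabpc1 was at -0.92 and -0.95 and Cnot6 at -0.79 and -0.87. Under the Myog cut Cnot6 was at 87.1 CPM young and 71.6 aged on soft, and 85.9 and 63.5 on stiff. Pabpc1 there was at 697 and 505 on soft, and 690 and 525 on stiff. The part of the Myog make-up was not tested.

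Of 38 known or proposed AU-rich target messages, 28 were tested between the Myog classes, where 20 fell and 7 rose, with a median of -0.92, beside 57.4% and 26.8% of all genes and their median of -0.28. The 7 include Myog, which divides the cells. Cdkn1a, the cell cycle inhibitor, rose by 3.06 and Mef2c, a muscle transcription factor, by 5.02, and Gadd45b rose by 0.62. Ccnd1 fell by 3.25, Ccna2 by 2.21, Ccnb1 by 1.73 and Tgfb1, a growth factor gene, fell by 1.91. Ccnd1 entered the test only through the low-Myog class, where it is high. The list is rich in cyclins and growth genes, and of its 36 genes with a UTR in the reference 13 held the nonamer, Ccnb1 among them, and Ccnd1, Cdkn1a and Mef2c not.

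Over all tested genes, the 508 with the nonamer had a median Myog difference of -0.23 and the 6529 without it -0.28, with median UTR lengths of 2421 and 941 bases. The pair of medians differ by little beside the differences of the members. Aged against young, 15 of 23 target messages were lower on soft and 15 of 22 on stiff substrate, beside 28.1% and 29.5% of all genes, led by Ccna2 at -1.51 and -1.70, Ccnb1 at -0.78 and -1.53 and Tgfb1 at -0.94 and -1.08.

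Immediate early genes, many of them AU-rich, were lower in high-Myog cells in 9 of 13 tested and higher in 1, with a median of -1.13, beside 57.4% and 26.8% of all genes and their median of -0.28. Ier2 fell by 1.56, Ier5 by 1.48, Fos by 1.41, Socs3 by 1.30 and Klf6 by 1.13. Ier5 and Socs3 entered the test only through the low-Myog class, where they are high. Egr1, an early growth response factor, went from 132.5 to 200.4 CPM under the cut to 27.7 to 49.0 CPM above it. Aged against young over all cells, Egr1 was at -0.93 and -1.17 and Ier2 at -0.54 and -0.79. Socs3, an inhibitor of cytokine signalling, was at 0.72 and 0.76. Under the Myog cut Egr1 was at 200.4 CPM young and 132.5 aged on soft, and 200.3 and 134 on stiff. Ier2 there was at 100.2 and 67.7, and 113.6 and 76.3, and Socs3 at 20.1 and 62.6, and 19.6 and 76.7. The part of the Myog make-up was not tested.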

How the data were processed

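Single-cell 3′ RNA libraries (Chromium v3) were made from 4 cultures, 1 per group, per the labels' protocols. The submitters' processing notes name Cell Ranger 6.1.2 and Partek but not what each did. The authors deposited log2(CPM + 1) per cell, a unit found from the values, and a table pairing symbols with Ensembl identifiers. The sources used here do not state the genome build or the cell filters. UMIs were recovered from the steps between values, of which at least 99.95% came out whole within 0.05, and served for depth, thinning and intervals.

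Cells under 500 genes or over 20% mitochondrial counts were left out. Doublets were neither called nor removed. Levels are means over cells of CPM. With 1 library per group, log2 ratios of CPM + 5 were described for genes at 20 CPM or more in either library, called at a log2 ratio of 0.32. The Myog classes were tested with limma 3.58.1 (trend, library as a term) on 8 library-by-class profiles, Benjamini-Hochberg adjusted over all 7177 genes, threshold 0.05.

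The members and lists were chosen with earlier results of these data known. Named genes are the members, up to 4 of each list with the largest Myog difference and up to 4 with the largest comparison, and the 3 genes most like each member.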

Additional observations from a re-analysis of the deposited data

Results flagged for a closer look

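The effect of the Myog class differed between the ages for 3 members by the interaction test in limma. Aged minus young was -0.43 for Zfp36l2, -0.26 for Elavl1 and -0.24 for Hnrnpd on the log2 scale. The soft and stiff libraries of each age served as its replicates, without error between animals. The same test called 1645 of 7177 genes, and with median-of-ratios scaling the limma adjusted p was 0.060 for Elavl1 and 0.083 for Hnrnpd, past the threshold for neither. The difference between stiff and soft substrate in Zfp36 had opposite signs in the ages, 0.068 in young and -0.056 in aged cells, and this was not tested. The ageing difference in the Zfp36 family over Elavl1 was 0.051 on soft and -0.20 on stiff substrate over all cells, also of opposite sign and not tested.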

How the results depend on the processing

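Between the Myog classes, all 5 tested members stayed lower and past the limma threshold in each of 15 settings, the reported one included (Myog cut of 6 or 8, pseudocount of 1, no filter, no library term, summed UMIs, median-of-ratios scaling, thinning, without cycling cells, without cells under 1% mitochondrial counts, without each library). Without each library in turn the count was 5 to 5. With no filter all 6 were past it.

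The aged stiffness and the ageing comparisons moved with the Myog make-up, and the young stiffness comparison stayed at 0. The count of members called for stiff against soft aged cells, 1 as reported, was 2 with a pseudocount of 1 or without cells under 1% mitochondrial counts, and 0 in either Myog class alone, with equal weights for the classes or with the Myog bins of the first library as weights (the last chosen after seeing the data). For aged against young on soft and on stiff substrate the count of 4 became 0 under the Myog cut alone and under both weightings, and 2 on stiff at or above the cut. The share of all genes called fell too, from 37.9% on soft and 40.6% on stiff to 22.7% and 20.9% with equal weights and 21.9% and 18.4% with bin weights. The log2 difference of decay-promoting genes over Elavl1, -0.01 on soft and -0.13 on stiff, became 0.16 and 0.070 under the cut, 0.17 and 0.15 above it, 0.20 and 0.14 with equal weights and 0.19 and 0.12 with bin weights. Counting half-widths for this ratio were computed over all cells only. With summed UMIs the aged against young value of Zfp36l2 moved from -0.87 to -1.14 on soft and from -1.14 to -1.39 on stiff substrate. Hnrnpd moved to -0.62 and -0.61. No paired analysis was possible because each group has 1 library and the labels give no shared replicate numbers. Zfp36, at 0.22 to 0.37 UMIs per cell in the classes, is limited most by depth.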
